A study of Mus musculus with 2 samples.

Results

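The genes described are 10 of the 27998 in the count matrices. They encode transmembrane proteins of the nuclear envelope, named by symbol: Plpp7, Tmem38a, Wfs1, Tmem214, Tor1aip1, Sun1, Sun2, Syne1, Syne2 and Syne3. They were measured by single-nucleus RNA-Seq in the gastrocnemius-plantaris, a group of calf muscles of the mouse. The Ctrl library came from Net39 fl/fl mice, in which loxP sites surround the first exon of Plpp7, the gene of Net39. The cKO library came from Net39 fl/fl mice that also carried HSA-CreERT2, a Cre recombinase switched on by tamoxifen and driven by the human skeletal actin promoter, which is active in muscle fibres. Mice of both groups were male, were given tamoxifen, and were 5 months old, 3 months after that treatment. Each group had 1 library. The protocol describes 3 muscles pooled per library, while the titles name a single mouse for each, so the number of animals behind a library is uncertain. The design thus gives no measure of variation between animals, and the 95% intervals printed here take in counting error alone.

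The nuclear envelope is a double membrane, and many of its transmembrane proteins differ between tissues. Net39, Tmem38a, Wfs1 and Tmem214 are found there in muscle, and in cultured muscle cells several of them help to place genes at the nuclear edge. Tor1aip1 encodes LAP1, which binds lamins and activates torsin ATPases. The LINC complex crosses both membranes: SUN proteins (Sun1, Sun2) in the inner membrane hold nesprins (Syne1, Syne2, Syne3) in the outer one, and the nesprins bind the cytoskeleton. In muscle fibres, nesprin-1 gathers microtubule-organising proteins at the nuclear surface and anchors nuclei below the neuromuscular junction (NMJ).

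After filtering, the Ctrl library held 3526 nuclei and 8965740 unique molecular identifiers (UMIs), each marking 1 captured RNA molecule. The cKO library held 3595 nuclei and 7244263 UMIs. Both libraries clustered into myonuclei (2989 Ctrl, 3301 cKO) and nuclei outside the fibres (537 Ctrl, 294 cKO). Each myonucleus was given a main myosin, the adult heavy chain gene with 60% or more of its UMIs for the 4 such genes, where it had at least 3. Main Myh7, the slow myosin, was found in 19 Ctrl and 276 cKO nuclei, Myh2 in 165 and 324, Myh1 in 302 and 382, and Myh4, the fastest, in 1916 and 1435. Levels are given as CPM, a gene's share of all UMIs of the class and library on a common scale. The share of UMIs from Malat1 was 25.5% in Ctrl and 30.7% in cKO, and its part in these levels was examined by leaving it out of the total. One cluster of myonuclei, led by Myh7 (cluster 1), held 176 Ctrl and 942 cKO nuclei, and another, led by Plekhh1 and Tmem100 (cluster 8, unnamed), held 160 Ctrl and 17 cKO nuclei.

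Plpp7 lies at chr2:32095528-32110820 on the plus strand of GRCm38, with up to 3 exons. The 250 bases before its annotated start are shown because this is where the engineered segment begins. Lower case is upstream of the inserted loxP site, and capitals mark bases of the floxed segment, which Cre removes together with the first exon (RefSeq, GRCm38.p6, chr2:32095278-32095527, plus strand).

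Plpp7 upstream sequence: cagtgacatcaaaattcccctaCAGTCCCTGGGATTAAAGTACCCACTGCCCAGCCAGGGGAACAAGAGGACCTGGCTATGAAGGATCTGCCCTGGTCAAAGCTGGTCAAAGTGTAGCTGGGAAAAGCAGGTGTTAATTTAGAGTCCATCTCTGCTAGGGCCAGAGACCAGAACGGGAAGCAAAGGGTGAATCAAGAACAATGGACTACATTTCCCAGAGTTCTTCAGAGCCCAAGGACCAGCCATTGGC

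The assay counts RNA near its 3′ end, and the matrices give 1 count per gene. Whether a counted molecule held the first exon cannot be seen in them.

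Plpp7 was the targeted gene, and in all myonuclei its level was 51.6 CPM in Ctrl (408 UMIs) and 41.0 CPM in cKO (278 UMIs). The log2 ratio of cKO over Ctrl was -0.33 (95% interval -0.56 to -0.11). The difference was small over all myonuclei and unequal between classes. In nuclei of mixed myosin, Plpp7 measured 62.1 CPM in Ctrl (27 UMIs) and 28.0 CPM in cKO (17 UMIs). That log2 ratio was -1.15 (-2.12 to -0.22). In pooled nuclei with main Myh7, Myh2 or Myh1 (49 and 51 UMIs), the log2 ratio was -0.75 (-1.35 to -0.16). Its difference from the ratio with main Myh4 was -0.90, with bounds of -1.55 and -0.24. The mix of classes in this pool differed between the libraries.

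In nuclei with main Myh4, Plpp7 measured 54.5 CPM in Ctrl and 60.2 CPM in cKO (log2 ratio 0.14, -0.13 to 0.42). In nuclei with main Myh1 it measured 41.3 CPM in Ctrl and 28.0 CPM in cKO. In nuclei with main Myh2 it measured 34.3 CPM in Ctrl and 26.2 CPM in cKO. Both of these ratios had intervals that covered 0, and with main Myh2 the log2 ratio turned from -0.39 to 0.82 when 80% of at least 5 UMIs were required. With main Myh7 the level was 13.1 CPM in cKO (8 UMIs, 5.66 to 25.8 CPM), while Ctrl gave 49.4 CPM from only 2 UMIs (5.98 to 179 CPM), too few for a ratio to be read.

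Within the cKO library the Plpp7 level fell from main Myh4 through Myh1 and Myh2 to Myh7. The level with main Myh4 was 2.15-fold that with main Myh1, 2.29-fold that with main Myh2 and 4.59-fold that with main Myh7, and none of these 3 intervals covered a ratio of 1. The neighbours Myh1 and Myh2, and Myh2 and Myh7, did not differ beyond counting error. This order overlaps with cluster 1, which held 271 of the 276 cKO nuclei with main Myh7. Outside that cluster, cKO nuclei with main Myh1 and main Myh2 measured 38.9 and 38.1 CPM. Within Ctrl no pair of main myosin classes differed beyond counting error. The Ctrl levels with main Myh4, Myh1 and Myh2 ran in the same order (54.5, 41.3 and 34.3 CPM). There, Myh1, Myh2 and Myh7 gave only 33, 14 and 2 UMIs.

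The ratio was lowest in the Myh7-led cluster among the clusters. There the level was 42.0 CPM in Ctrl (20 UMIs) and 10.2 CPM in cKO (23 UMIs), a log2 ratio of -2.04 (-2.97 to -1.10). The cluster was drawn from the same counts, so this is a description. The nuclei of cluster 1 that were not assigned to Myh7 (158 Ctrl, 671 cKO) measured 41.0 CPM in Ctrl and 9.06 CPM in cKO. Of these cKO nuclei, 317 had an undetermined and 87 a mixed myosin. The cluster's nuclei with main Myh4 gave 5 UMIs in each library (33.2 CPM in Ctrl, 18.5 CPM in cKO), and the interval of their ratio covered 0.

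Outside cluster 1, Plpp7 measured 52.2 CPM in Ctrl and 56.3 CPM in cKO, so the direction of the ratio turned (log2 0.11, -0.13 to 0.34). There, nuclei with main Myh2 measured 37.4 CPM in Ctrl and 38.1 CPM in cKO, and nuclei with main Myh1 measured 41.3 and 38.9 CPM. When the cKO levels were weighted by the myosin classes' UMI shares in Ctrl, the log2 ratio over all myonuclei was -0.040. The share of myonuclei with a Plpp7 UMI, after each nucleus was thinned to 500 UMIs, was 2.44% in Ctrl and 2.36% in cKO, and outside the fibres 0.931% and 0.680%. The share without thinning was 4.15 points lower in cKO, where the median nucleus held 1647 UMIs against 2141 in Ctrl.

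**Figure D1:**
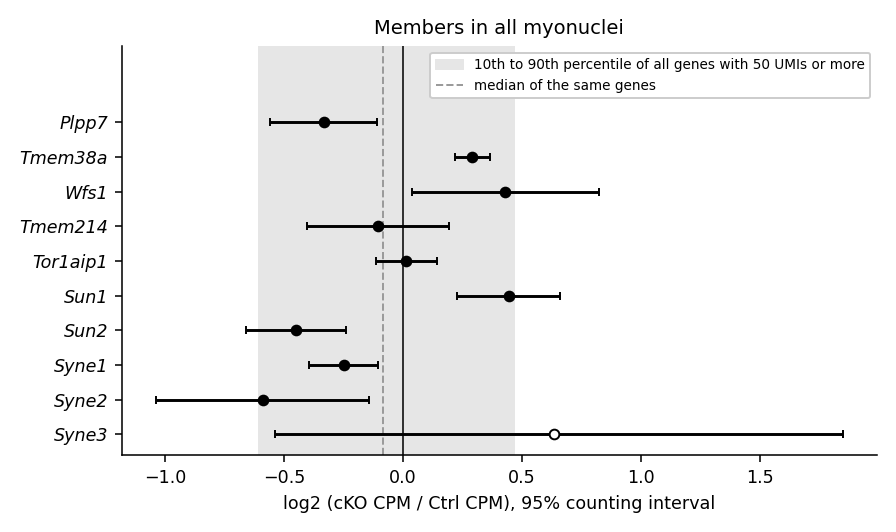
Log2 ratio of cKO over Ctrl CPM in all myonuclei for the 10 genes, with 95% counting intervals. Grey marks the range from the 10th to the 90th percentile of the 9294 genes with 50 UMIs or more, and the open circle marks Syne3, which had fewer. Sun1, Tmem38a and Wfs1 lie above 0 and Plpp7, Sun2, Syne1 and Syne2 below it, all with intervals that exclude 0.

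Over all myonuclei, 9 of the 10 genes had at least 50 UMIs. None was higher in cKO by 1.5-fold or more, a size reached by 7.32% of the 9294 genes with as many UMIs. Only Syne2 was lower by as much, a size reached by 10.7% of those genes. Its level was 1.50-fold lower, at the edge of the size used, and was within 1.5-fold under 7 alternatives, among them both other cluster resolutions and the total without Malat1. After thinning to 500 UMIs the log2 ratio was larger, -0.84, but too few UMIs were left for the count. The median log2 ratio was -0.10 over the 9 genes and -0.08 over all 9294.

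Tmem38a encodes TRIC-A, a cation channel of the sarcoplasmic reticulum and nuclear membrane that balances charge during calcium release. It had the most UMIs of the 10 genes, 2928 in Ctrl and 3072 in cKO myonuclei. Its level in all myonuclei was 370 CPM in Ctrl and 453 CPM in cKO (log2 ratio 0.29, 0.22 to 0.36). The ratio was above 0 in every main myosin class.

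With main Myh4, Tmem38a measured 379 CPM in Ctrl and 453 CPM in cKO. With main Myh1 it measured 330 CPM in Ctrl and 434 CPM in cKO. With main Myh2 it measured 311 CPM in Ctrl and 440 CPM in cKO. These 3 ratios had intervals above 0. With main Myh7 the Ctrl level was 469 CPM from 19 UMIs and the cKO level 579 CPM from 353 UMIs, and the interval of that ratio covered 0. Within cKO the level with main Myh7 exceeded each of the other myosin classes by 1.28- to 1.33-fold, beyond counting error.

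Tmem38a was lower in myonuclei of the myotendinous junction-like cluster, named from 5 detected markers, than in other myonuclei. That cluster measured 245 CPM in Ctrl (log2 ratio to other myonuclei -0.62) and 309 CPM in cKO (-0.57). The level was low in cKO in the NMJ-like cluster too, at 230 CPM (log2 -0.99, -1.72 to -0.34). In Ctrl that cluster measured 306 CPM, and the interval of its ratio to other myonuclei covered 0. Without Malat1 and mitochondrial genes in the total, the log2 ratio of cKO over Ctrl in all myonuclei was 0.39. Nuclei outside the fibres also had a higher Tmem38a level in cKO, 227 CPM against 145 CPM in Ctrl. Both levels were at or near the background of fibre RNA described below.

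Wfs1 encodes wolframin, a glycoprotein of the endoplasmic reticulum and nuclear envelope. Its level differed widely between main myosin classes. In Ctrl it measured 93.2 CPM with main Myh2, 22.5 CPM with main Myh1 and 4.78 CPM with main Myh4. The level with main Myh2 was 19.5-fold that with main Myh4 (log2 4.28, 3.53 to 5.06) and 4.14-fold that with main Myh1.

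In cKO the order of these 3 classes was the same, with smaller steps. Wfs1 measured 42.2 CPM with main Myh2, 26.9 CPM with main Myh1 and 7.39 CPM with main Myh4, and Myh2 stood 5.71-fold above Myh4. The step from Myh2 to Myh1 did not exceed counting error in cKO (log2 0.65, -0.18 to 1.49). Main Myh7 gave 6.56 CPM in cKO (4 UMIs), lower than with main Myh2 beyond counting error. The Ctrl value of 49.4 CPM there rested on 2 UMIs.

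With main Myh2 the log2 ratio of cKO over Ctrl was -1.14 (38 and 29 UMIs, -1.89 to -0.41). In nuclei whose myosin was not determined, it was 2.16 in the opposite direction (4 and 23 UMIs, 0.61 to 4.15). These undetermined nuclei were the shallowest of the myosin classes, with median UMI counts of 1597 in Ctrl and 1241 in cKO. Outside cluster 1, Wfs1 with main Myh2 measured 77.6 CPM in Ctrl and 51.6 CPM in cKO, and the interval of that ratio covered 0. Over all myonuclei, Wfs1 gave 103 UMIs in Ctrl and 119 in cKO (17.5 CPM), a log2 ratio of levels of 0.43 (0.04 to 0.82). When the cKO levels were weighted by the Ctrl shares of the classes, the ratio was 0.09, and after thinning of every nucleus to 500 UMIs it was -0.20.

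**Figure D2:**
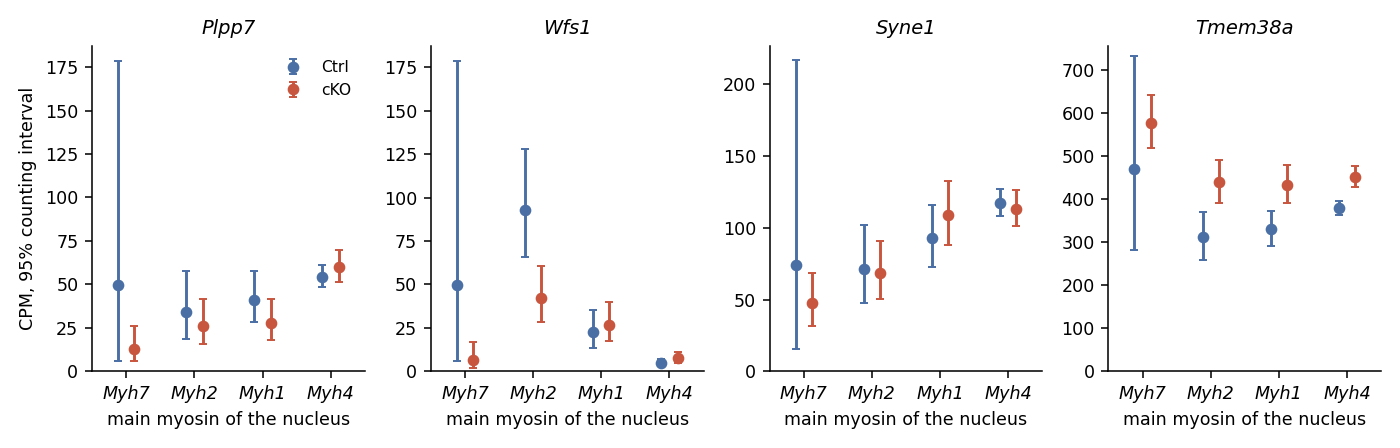
CPM of Plpp7, Wfs1, Syne1 and Tmem38a in nuclei by main myosin, with 95% counting intervals, for Ctrl and cKO. In cKO, Plpp7 runs from 60.2 CPM with main Myh4 to 13.1 CPM with main Myh7, Wfs1 is highest with main Myh2 among the cKO classes, and the wide Ctrl bars at Myh7 reflect its 19 nuclei.

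Tmem214 encodes a membrane protein of the endoplasmic reticulum and nuclear envelope. Its level in all myonuclei was 26.9 CPM in Ctrl and 25.1 CPM in cKO (log2 ratio -0.10, -0.40 to 0.19). With main Myh2, Myh1 and Myh4 it lay between 21.3 and 36.8 CPM in Ctrl and between 19.1 and 26.9 CPM in cKO, and no ratio of cKO over Ctrl in these classes excluded 0. Its Ctrl level was highest among clusters of myonuclei in cluster 8, at 53.2 CPM (20 UMIs). The cKO library gave only 2 UMIs in that cluster.

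Tor1aip1 levels were close between the libraries. In all myonuclei this gene measured 139 CPM in Ctrl and 141 CPM in cKO (log2 ratio 0.01, -0.11 to 0.14). By main myosin the Ctrl levels ran from 98.8 CPM (4 UMIs, Myh7) to 177 CPM (Myh2), and the cKO levels from 120 CPM (Myh7) to 153 CPM (Myh1). No ratio of cKO over Ctrl in the 4 main myosin classes excluded 0. In cKO its level was lower in the Myh7-led cluster (108 CPM) than in cluster 0, the cluster led by fast-fibre genes including Myh4 (144 CPM). Tor1aip1 overlaps Tor1aip2 on the opposite strand.

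Sun1 and Sun2 differed between the libraries in opposite directions. Over all myonuclei, Sun1 measured 41.7 CPM in Ctrl and 56.8 CPM in cKO (330 and 385 UMIs, log2 ratio 0.44, 0.23 to 0.66). Sun2 measured 61.7 CPM in Ctrl and 45.3 CPM in cKO (488 and 307 UMIs, log2 ratio -0.45, -0.66 to -0.24).

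As a ratio of counts, which does not depend on the total, the comparison used both genes within a library. Sun2 took 59.7% of the UMIs of both genes in Ctrl (exact binomial 56.2% to 63.0%) and 44.4% in cKO (40.6% to 48.2%). The log2 ratio of Sun2 to Sun1 counts was thus 0.89 lower in cKO, with bounds of -1.19 and -0.59 for the difference. Without cluster 1 the shares were 59.1% in Ctrl and 46.7% in cKO.

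Sun1 was higher in cKO with main Myh4, 45.3 CPM against 64.2 CPM (log2 0.50), and with main Myh1, 32.5 CPM against 59.4 CPM (0.87). With main Myh2 it was 44.1 CPM in Ctrl and 45.2 CPM in cKO. Only in the classes of Myh4 and Myh1 did the interval exclude 0.

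Sun2 was lower in cKO with main Myh2, 76.0 CPM against 30.6 CPM (log2 -1.31, -2.19 to -0.47). Outside cluster 1, main Myh2 nuclei measured 58.8 CPM and 35.9 CPM for Sun2, and the interval of that log2 ratio (-0.71, -1.74 to 0.28) covered 0. With main Myh4 it was 64.0 CPM in Ctrl and 52.8 CPM in cKO (-0.28, with an upper bound that rounds to 0.00). With main Myh1 it was 37.5 CPM in Ctrl and 40.4 CPM in cKO, so the gene was not lower in every class. In Ctrl, Sun2 was lower with main Myh1 than with either main Myh2 or main Myh4 beyond counting error. The Sun2 share of both genes was lower in cKO with main Myh2, Myh1 and Myh4, and the interval of its change excluded 0 with main Myh2 and main Myh4. With main Myh7 the Ctrl share rested on 2 UMIs of each gene, too few to be read. Outside the fibres Sun2 took 40.4% of both in Ctrl against 56.8% in cKO, with an interval that covered no change. There, Sun2 in Ctrl was at 55.0% of its myonuclear level, within the range of the fibre genes described below. Sun1 in cKO was at 61.0%, also within that range. It rested on 16 UMIs, and its interval covered equality with myonuclei, so background was not settled. In the other library each gene was not lower outside, with Sun1 at 119.7% in Ctrl and Sun2 at 100.4% in cKO. Both of those intervals covered equality.

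**Figure D3:**
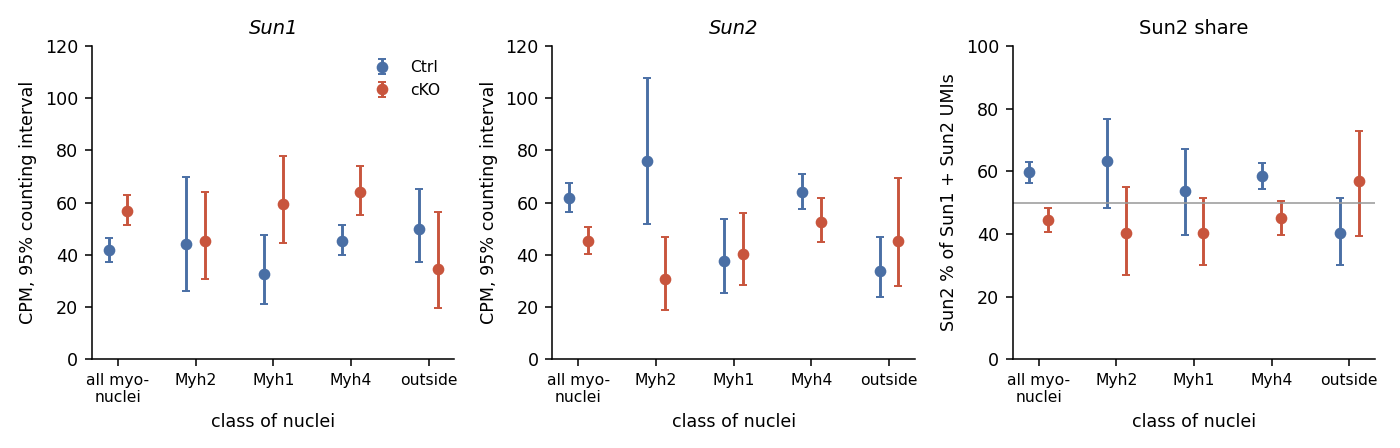
CPM of Sun1 and Sun2 and the Sun2 percentage of the UMIs of both, with 95% counting intervals, in all myonuclei, in nuclei with main Myh2, Myh1 or Myh4, and outside the fibres. The share in all myonuclei was 59.7% in Ctrl and 44.4% in cKO, on either side of the line at 50%.

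Syne1 encodes nesprin-1, and the gene is long, spanning chr10:5020917-5551482 on the minus strand of GRCm38. In all myonuclei it measured 116 CPM in Ctrl and 97.5 CPM in cKO (log2 ratio -0.25, -0.40 to -0.10). Without cluster 1 it measured 115 CPM in Ctrl and 107 CPM in cKO, and the interval of that ratio covered 0.

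By main myosin, Syne1 followed the order Myh4, Myh1, Myh2 in both libraries. It measured 117, 92.6 and 71.1 CPM in Ctrl and 113, 109 and 68.5 CPM in cKO. The level with main Myh2 was lower than with main Myh4 by 1.65-fold in both, beyond counting error in each library. Main Myh7 measured 47.5 CPM in cKO (29 UMIs), 2.38-fold lower than main Myh4, and 74.1 CPM in Ctrl from 3 UMIs. Neighbouring classes Myh4 and Myh1 did not differ beyond counting error in either library. No main myosin class had a ratio of cKO over Ctrl that excluded 0.

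Syne1 was highest among myonuclear clusters in the NMJ-like cluster, in which 10 of 10 fixed markers were detected. That cluster of 34 Ctrl and 37 cKO nuclei measured 240 CPM in Ctrl (22 UMIs) and 230 CPM in cKO (19 UMIs). It stood 2.10-fold above other myonuclei in Ctrl and 2.40-fold in cKO, and both intervals excluded equality. Cluster 8 measured 178 CPM in Ctrl and 204 CPM in cKO, also above other myonuclei in both libraries.

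Among nuclei outside the fibres, Syne1 measured 175 CPM in Ctrl and 108 CPM in cKO (log2 ratio -0.70, -1.18 to -0.24). In the endothelial-like class it was 317 CPM in Ctrl and 167 CPM in cKO. In the fibro-adipogenic progenitor (FAP)-like class it was 131 CPM in Ctrl and 76.1 CPM in cKO. These nuclei were not the target of HSA-CreERT2, whose promoter is that of muscle fibres.

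Syne2 encodes nesprin-2. In all myonuclei it measured 15.1 CPM in Ctrl (119 UMIs) and 10.0 CPM in cKO (68 UMIs), a log2 ratio of -0.59 (-1.04 to -0.14). The ratio was within 1.5-fold without cluster 1, and with main Myh4, where the levels were 15.3 and 11.8 CPM, its interval covered 0. In cluster 1 the log2 ratio was -1.50 (12 and 20 UMIs, -2.61 to -0.34). Main Myh7 gave only 3 UMIs in each library. Syne3 encodes nesprin-3, which binds plectin. It gave 12 UMIs in Ctrl and 16 in cKO myonuclei, too few for a comparison at this depth.

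**Figure D4:**
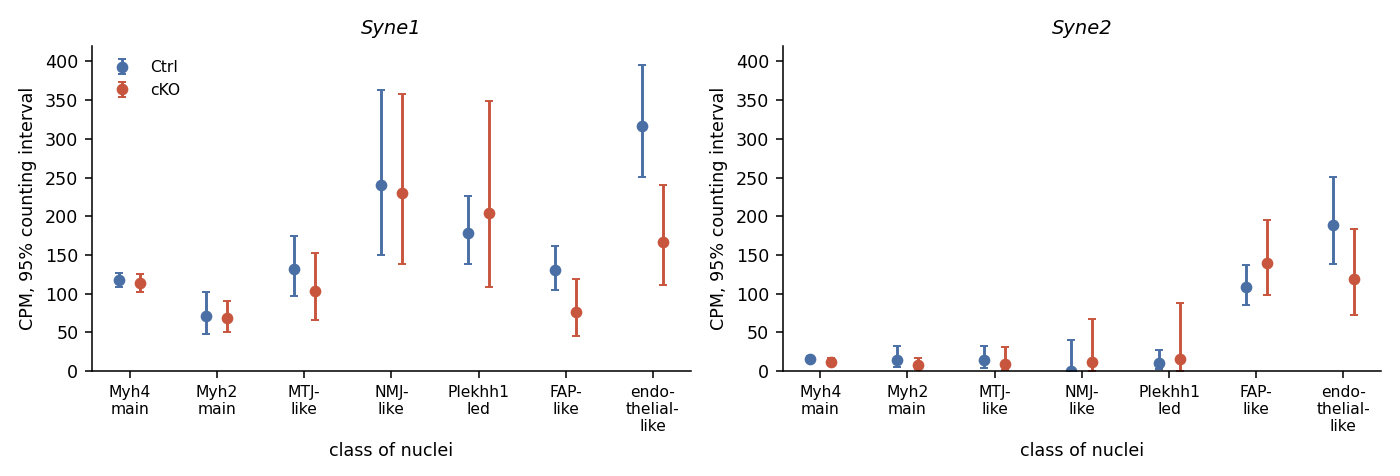
CPM of Syne1 and Syne2 with 95% counting intervals by class of nuclei, on 1 scale. Syne1 stands above the main Myh4 nuclei in the NMJ-like and Plekhh1-led clusters and in endothelial-like nuclei. In cKO the intervals of the Plekhh1-led cluster and of endothelial-like nuclei overlap that of main Myh4. Syne2 is at or below 15.7 CPM in the 5 myonuclear classes drawn and at 109 CPM or more in FAP-like and endothelial-like nuclei.

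By main myosin, 8 members reached 50 UMIs in nuclei with main Myh4, and none of them differed between libraries by 1.5-fold, against 15.0% of 7760 genes there. With main Myh1, 1 of 6 did so (Sun1, higher), against 17.1% of 3607 genes. The log2 ratio of Sun1 there was 0.16 or 0.56 when myosin was assigned after thinning to 500 or 1000 UMIs, and 0.52 when 80% of at least 5 UMIs were required, all within 1.5-fold. With main Myh2, 2 of 5 did so (Wfs1 and Sun2, lower), against 20.2% of 2669 genes, and for both the interval covered 0 once cluster 1 was left out. With main Myh7, none of the 2 genes with enough UMIs did so, against 47.0% of 1758 genes, where Ctrl held 19 nuclei. In all, 165 ratios of cKO over Ctrl were counted for the 10 genes over the myosin classes, the nuclei outside the fibres and the clusters, which overlap. Of their intervals 31 excluded 0, and some would do so from counting error alone. The ratios over all myonuclei, in the finer outside classes and in parts of cluster 1 are not in this count.

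Nuclei outside the fibres also carried RNA of fibre genes. For 12 genes of the contractile and calcium machinery, the level outside was a median of 47.8% of that in myonuclei in Ctrl (41.2% to 59.1%) and 50.1% in cKO (36.7% to 64.7%). A member at such a percentage outside was at the level of these fibre genes and cannot be told apart from background. Plpp7 outside was 34.7% of its myonuclear level in Ctrl (17.9 CPM, 19 UMIs) and 79.2% in cKO (32.5 CPM, 15 UMIs). Tmem38a stood at 39.2% in Ctrl and 50.2% in cKO.

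Over all nuclei outside the fibres, both genes were thus at or near that background, apart from Plpp7 in cKO, for which the interval of the ratio was wide. Endothelial-like nuclei were an exception in cKO, with Tmem38a at 369 CPM (62 UMIs) against 453 CPM in myonuclei. By the same reading, Sun2 in Ctrl (55.0%), Sun1 in cKO (61.0%) and Wfs1 in cKO (49.3%) were also in the range of the fibre genes. For Sun1 and Wfs1 in cKO (16 and 4 UMIs outside), the interval covered equality with myonuclei too, so background was not settled. Of 9 genes with enough UMIs, only Tmem38a was higher in myonuclei by 1.5-fold or more in both libraries, as were 9.39% of 7614 genes. Tmem214 and Syne2 were higher outside by as much in both libraries, as were 24.9% of those genes.

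Syne2 was 8.14-fold higher outside than in myonuclei in Ctrl and 13.8-fold higher in cKO. It measured 123 CPM outside in Ctrl and 139 CPM in cKO. FAP-like nuclei measured 109 CPM in Ctrl and 140 CPM in cKO, and endothelial-like nuclei 188 CPM and 119 CPM. Syne3 was 15.5-fold higher outside in Ctrl (25 UMIs) and 5.50-fold higher in cKO (6 UMIs), and 20 of its 25 Ctrl UMIs lay in FAP-like nuclei. Syne2 and Syne3 were thus higher outside the fibres in both libraries. Syne1 was 1.51-fold higher outside in Ctrl, and in cKO its log2 ratio of myonuclei over outside was -0.15 (-0.57 to 0.29).

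Tmem214 measured 43.4 CPM outside in Ctrl and 39.0 CPM in cKO, which was 1.61-fold and 1.55-fold its level in myonuclei. The interval excluded equality in Ctrl and not in cKO. Tor1aip1 was at 150 CPM outside in Ctrl and 141 CPM in cKO, within counting error of the myonuclei in both libraries. Between libraries, 7 genes had enough UMIs outside, and 2 of them differed by 1.5-fold (Tmem38a higher, Syne1 lower), against 19.7% of 4714 genes. For Tmem38a both levels were at or near the background of fibre genes.

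**Figure D5:**
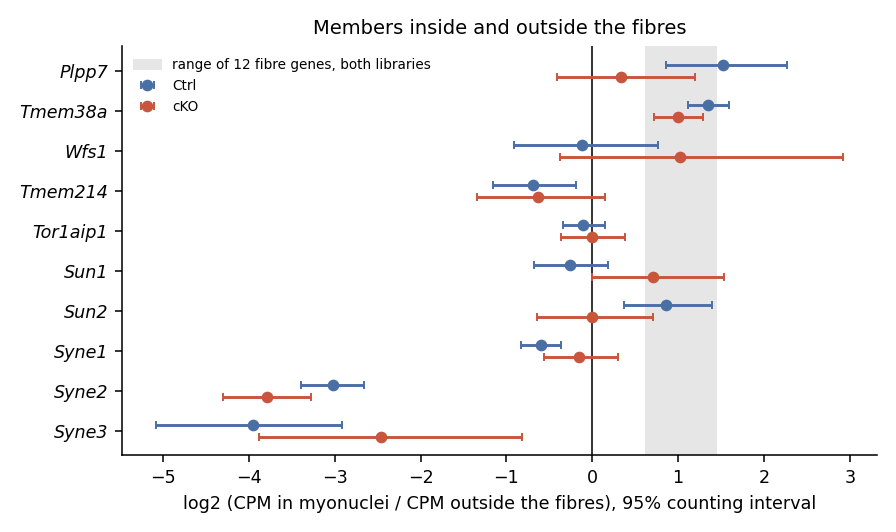
Log2 ratio of CPM in myonuclei over CPM outside the fibres for the 10 genes in each library, with 95% counting intervals. Grey marks the range of the 12 fibre genes over both libraries. Plpp7 in Ctrl, Tmem38a in both libraries, Sun2 in Ctrl, and Sun1 and Wfs1 in cKO lie in or next to that range, and Syne2 and Syne3 lie far on the other side of 0.

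Other genes of the nuclear envelope were followed in all myonuclei as lists. Of 18 other nuclear membrane protein genes, 13 had enough UMIs. Emd, the gene of emerin, was higher in cKO by 1.5-fold or more, with 2.53 CPM in Ctrl and 4.87 CPM in cKO. It rested on 20 and 33 UMIs (log2 0.94, 0.10 to 1.82), and with main Myh4 its interval covered 0. Tmem43, Lemd2 and Tmpo were lower by as much, and the other 9 were within that size. The shares over all genes in myonuclei were 7.32% higher and 10.7% lower. Tmpo, which encodes the lamina-associated polypeptide LAP2, measured 64.1 CPM in Ctrl and 30.4 CPM in cKO (log2 -1.08, -1.32 to -0.84). Lemd2, a LEM-domain protein of the inner membrane, measured 16.2 CPM in Ctrl and 10.6 CPM in cKO. Tmem43 rested on 32 and 18 UMIs, and its interval covered 0.

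In the nuclear lamina list, Lmna, which encodes lamins A and C, was the only one of the 3 genes with enough UMIs that was past 1.5-fold. It measured 32.4 CPM in Ctrl and 63.5 CPM in cKO (log2 0.97, 0.75 to 1.20). Of 9 other LINC and torsin genes, 2 had enough UMIs and neither was past 1.5-fold. All 11 genes for partners of nesprins at the nuclear surface had enough UMIs, and none was past 1.5-fold (median log2 ratio -0.06). The lists hold neighbours of the members and were not tested as sets.

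The genes whose levels most resembled those of each member were found over 17 points, which were classes of nuclei in each library with at least 50000 UMIs in all. The points share libraries and depth, so the values of Pearson's r of log2(CPM + 5) are descriptions. Plpp7 was most like Sfxn5 (r = 0.83), followed by Ppp1r14c and Clybl. Tmem38a was most like Map4 (0.94), followed by Capn3 and Dmd. Wfs1 was most like Akap1 (0.92), followed by Gnpat and Sdha.

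For the remaining genes the closest were Atg7 for Tmem214 (r = 0.92), Apc for Tor1aip1 (0.78), Phf20 for Sun1 (0.86), Txnip for Sun2 (0.80), Zbtb46 for Syne1 (0.90) and Plcb4 for Syne2 (0.96). Syne3 had too few UMIs to be included.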

How the data were processed

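The authors deposited raw UMI counts per gene and nucleus, made with Cell Ranger 3.1.0 on mm10 per the submitters' processing notes, at default parameters per the study's methods. Nuclei were sorted on DAPI. Whether the reference included introns was not given in the sources used here. Kept nuclei had at least 100 genes, 500 UMIs and at most 10% mitochondrial UMIs. Scrublet (scanpy 1.11.5) marked 0 doublets at its automatic threshold, which was not relied on, and the 8% with the highest score per library were removed instead (307 Ctrl, 313 cKO). The libraries shared 5 barcodes. Nuclei were clustered with Seurat 5.3.0 and sctransform 0.4.2 in R 4.3.3 (25 components, resolution 0.3). A cluster was outside the fibres with at least 4 detected markers of a non-fibre class (10 UMIs and 2-fold over other nuclei). This rule and the finer outside classes, from resolution 0.5, were set after seeing the clusters.

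UMIs were summed per class and library. Intervals are exact Poisson for CPM, exact conditional for ratios and Clopper-Pearson for shares, checked on simulated data. Bounds of a difference combine both intervals. With 1 library per group, no test was run. All 10 genes are named, with genes of the other lists past 1.5-fold and the 3 most like each member. The members and lists were chosen with earlier results of these data known. Locations are from GENCODE M21. Python 3.11.15 was used with numpy 2.4.6 and scipy 1.17.1.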

Additional observations from a re-analysis of the deposited data

Results flagged for a closer look

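Ratios of cKO over Ctrl that lay on opposite sides of 0 in different classes of nuclei, each with an interval that excluded 0, were found for Wfs1 and Syne1. The difference between the classes was not tested. For Wfs1, the log2 ratio was 2.16 in nuclei of undetermined myosin and -1.14 in nuclei with main Myh2.

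For Syne1, it was 0.41 in cluster 2, the cluster of myonuclei led by Myh1, and below 0 in several other classes. It was -1.19 in nuclei of mixed myosin, -0.67 in cluster 1, -0.70 outside the fibres and -0.99 in cluster 6, which held the endothelial markers. Cluster 6 is a part of the nuclei outside the fibres, and cluster 1 shares nuclei with the mixed class.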

How the results depend on the processing

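No paired analysis was possible because each group had 1 library. Without cluster 1, an alternative added after the data were seen, Plpp7 reversed to 0.11 and Tor1aip1 moved to 0.15. With myosin classes weighted as in Ctrl, also added, Plpp7 moved to -0.040. With nuclei thinned to 500 UMIs, Plpp7 was -0.051 and Wfs1 reversed to -0.20. Without Malat1 and mitochondrial genes, Tmem38a was 0.39. The 1 member lower by 1.5-fold, Syne2, gave a count of 0 in 7 alternatives (either of these 2 added ones, no Malat1, the mean of single-nucleus CPM, at least 1000 UMIs, either other resolution) and at 2-fold. The count was also 0 after thinning, where Syne2 was lower by more (-0.84) but had too few UMIs. Without a UMI filter, 1 was higher (Syne3). Syne1 with main Myh2 over Myh4 was -1.40 in Ctrl when 80% of 5 UMIs were required, and -1.27 in cKO when myosin was assigned after thinning to 500 UMIs. Members higher outside numbered 1 at resolution 0.1, without Malat1 and with doublets kept, where 2 were higher in myonuclei. The unthinned share difference was -4.15 points for Plpp7 and, reversed, -2.03 for Tmem38a. Of 458 recomputed values, 416 lay within the main interval (or, for counts, within 1.5 times), 39 moved and 3 reversed. The cause was not tested. Rare classes, chiefly main Myh7 in Ctrl, limit what this depth can show.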
